A study of Bos taurus with 6 samples.

Results

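The expression of 10 genes of the interstitial matrix was compared between bovine embryonic stem cells grown on live and on fixed feeder cells. The genes were the fibrillar collagen genes COL1A1, COL1A2, COL3A1, COL5A1 and COL5A2, the collagen VI genes COL6A1, COL6A2 and COL6A3, the fibronectin gene FN1 and the osteonectin gene SPARC. They were chosen by name, with earlier results of these data known, and matched by symbol and Entrez identifier. All 10 were among the 19163 genes of the count table. Every cell was of F7, 1 embryonic stem cell line from in vitro fertilized Holstein Friesian cattle, kept for 15 passages in a medium with fibroblast growth factor and the WNT inhibitor IWR1. The MC-F7 cells grew on mouse embryonic fibroblasts (MEFs) treated with mitomycin C, which stops division and leaves the feeder cells alive, and their medium was refreshed daily. The MT-F7 cells grew on MEFs fixed with methanol, and their medium was refreshed every other day. Feeder treatment and feeding interval therefore cannot be told apart. Dishes with fixed MEFs could serve more than once, and whether these had is not stated. Each group had 3 RNA-seq libraries, named by their replicate numbers 1, 2 and 3. Whether the libraries came from separate cultures is not stated, so the p values measure only the spread between these libraries, which may be technical.

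The interstitial matrix is the fibrous material that lies between cells, outside the sheet-like basement membrane. Procollagen chains fold into triple helices in the endoplasmic reticulum, are secreted and trimmed, and assemble into fibrils whose backbone is type I collagen, with type III in the more pliant tissues and type V as a regulator of fibril diameter. Collagen VI forms beaded microfilaments near the cell surface, fibronectin is assembled by integrins into a network on which collagen is laid down, and SPARC is a secreted calcium-binding glycoprotein that binds collagen. Fibroblasts are the best known source of these proteins, and early embryonic cells also secrete fibronectin and SPARC.

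The total counts were 21958386 to 23414319 in MC-F7 and 24271208 to 24933430 in MT-F7. The share of counts on the 13 mitochondrial protein genes was 16.3%, 19.8% and 28.3% in MC-F7 replicates 1, 2 and 3, and 23.2%, 18.0% and 27.9% in the MT-F7 ones, so that replicate 3 was the highest of each group. Levels in CPM (counts scaled to a common library size) are given on library sizes scaled by TMM (trimmed mean of M-values). On the unscaled total counts, 3 counts correspond to 0.120 to 0.137 CPM. The members were well above this floor in each library. As these are bulk libraries, fewer cells of a type and less RNA per cell cannot be told apart.

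Of the 10 genes, 6 had higher levels in MT-F7 than in MC-F7 cells at an adjusted p under 0.05, and 0 had lower levels. These 6 were COL3A1, COL5A1, COL5A2, COL6A2, FN1 and SPARC. Among all 13001 genes tested, 23.2% passed the same threshold, 11.9% with higher and 11.3% with lower levels in MT-F7. The median log2 fold change of the 10 genes was 0.69, against -0.0026 for all tested genes. As the 10 genes were chosen with earlier results of these data known, such comparisons with all tested genes describe the set and do not test it. In COL3A1 and COL5A2, 2 of the 6, the log2 fold change was over 1, where 6.13% of the tested genes had a called increase of that size. The libraries of the groups did not overlap in CPM for 7 of the 10 genes, the 6 called ones and COL1A1, each time with MT-F7 above MC-F7. Over all tested genes the groups did not overlap for 40.0%, and for 19.9% with MT-F7 above. All fold changes below are from edgeR's quasi-likelihood test, with Benjamini-Hochberg adjusted p values computed over the whole table and positive values for higher levels in MT-F7.

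**Figure D1:**
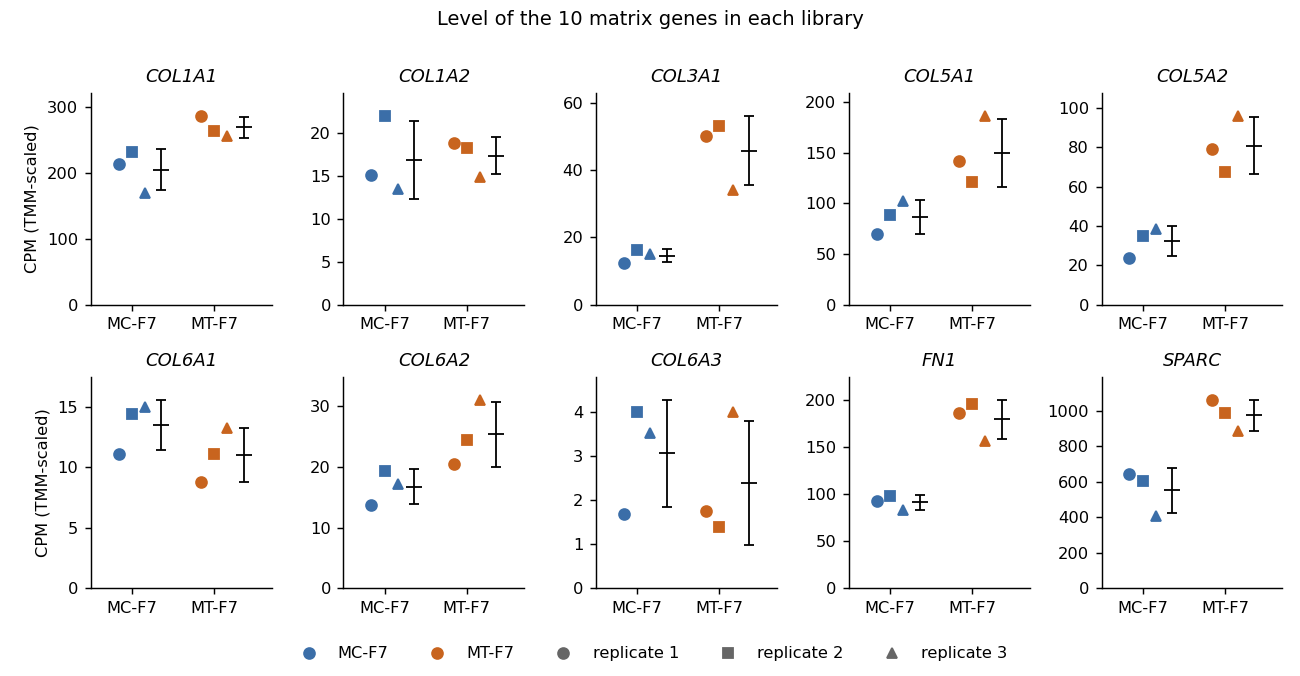
CPM (TMM-scaled) of the 10 genes in each of the 6 libraries, on linear axes from 0 that differ between panels, with the mean and the SD of each group of 3 (n = 3) beside the points. COL3A1, COL5A1, COL5A2, COL6A2, FN1, SPARC and COL1A1 show MT-F7 points above every MC-F7 point, and COL1A2, COL6A1 and COL6A3 show overlapping groups.

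The plot of CPM by library shows where the groups separate. Of the fibrillar collagens, COL3A1 (Entrez 510833), which encodes the only chain of type III collagen, had the largest fold change of the 10 genes. Its level was 12.4, 16.4 and 14.9 CPM in MC-F7 replicates 1, 2 and 3, and 50.1, 53.2 and 34.0 CPM in the MT-F7 ones. The lowest MT-F7 library, replicate 3, was above the highest MC-F7 library. The mean rose from 14.6 ± 1.99 to 45.8 ± 10.3 CPM (SD, n = 3 each), a log2 fold change of 1.65 (SE 0.198, 95% interval 1.22 to 2.08, adjusted p = 8.1e-05), or 3.14-fold. Only 2.68% of the tested genes had a higher log2 fold change.

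The next gene on the chromosome in the RefSeq annotation of the ARS-UCD2.0 assembly is COL5A2 (Entrez 538590), which encodes a chain of type V collagen. Its libraries read 23.9, 34.7 and 38.6 CPM in MC-F7 and 79.2, 67.2 and 95.9 CPM in MT-F7. The groups were well apart, and replicate 3 was the highest library of each. The mean rose from 32.4 ± 7.64 to 80.8 ± 14.4 CPM (SD, n = 3 each), with a log2 fold change of 1.32 (SE 0.200, 95% interval 0.88 to 1.75, adjusted p = 4.7e-04).

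COL5A1 (Entrez 100848491) encodes the chain that shares the type V helix with the COL5A2 product. The MC-F7 libraries had 69.6, 88.2 and 102 CPM and the MT-F7 libraries 142, 121 and 186 CPM. Again each MT-F7 library was above each MC-F7 library, with replicate 3 the highest of its group. The mean rose from 86.6 ± 16.3 to 150 ± 33.4 CPM (SD, n = 3 each), with a log2 fold change of 0.79 (SE 0.193, 95% interval 0.37 to 1.21, adjusted p = 0.010).

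COL1A1 (Entrez 282187) and COL1A2 (Entrez 282188) encode the chains of type I collagen, the most abundant fibrillar collagen of the body, in which the COL1A1 chain is the more numerous. COL1A1 was at 213, 231 and 170 CPM in MC-F7 and at 286, 263 and 256 CPM in MT-F7. The groups did not overlap, and replicate 3 was the lowest library in each. The means were 205 ± 31.4 and 268 ± 15.6 CPM (SD, n = 3 each), and the log2 fold change of 0.39 (SE 0.158, 95% interval 0.05 to 0.73) did not pass the threshold after adjustment (adjusted p = 0.094, unadjusted p = 0.028).

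COL1A2 had 15.2, 22.1 and 13.5 CPM in MC-F7 and 18.9, 18.3 and 14.9 CPM in MT-F7. The MT-F7 libraries all lay within the range of the MC-F7 ones. The log2 fold change was 0.04 (SE 0.204, adjusted p = 0.91), and its 95% interval ran from -0.40 to 0.48, so that a change as large as that of COL5A1 in the same direction lies outside it. The sign of this value was negative without MC-F7 replicate 1 (-0.03), without MC-F7 replicate 3 (-0.11) and without MT-F7 replicate 1 (-0.03).

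**Figure D2:**
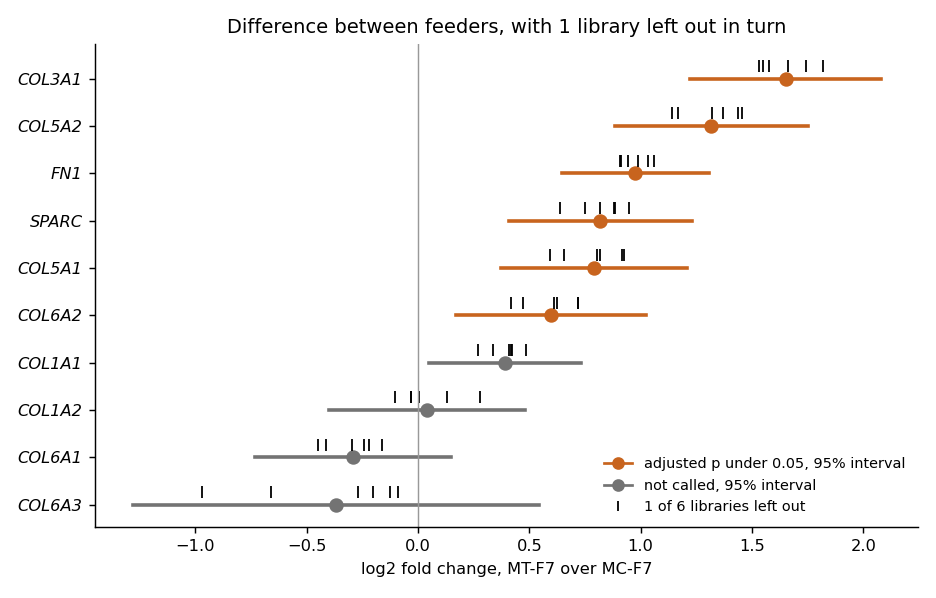
Log2 fold change of the 10 genes (MT-F7 over MC-F7, edgeR quasi-likelihood) with its 95% interval, in order of size, in orange for an adjusted p under 0.05 and in grey otherwise, with a tick for each fit that leaves out 1 of the 6 libraries. The 6 orange points lie from 0.60 for COL6A2 to 1.65 for COL3A1, and the intervals of COL1A2, COL6A1 and COL6A3 cross 0.

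The plot of fold changes also shows how far each value moved when 1 library was left out. COL3A1 then lay between 1.53 and 1.82, COL5A2 between 1.14 and 1.45, FN1 between 0.91 and 1.06, SPARC between 0.64 and 0.95 and COL5A1 between 0.59 and 0.92, and these 5 were called each time. COL1A1 lay between 0.27 and 0.49 and was called in 0 of the 6 fits.

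Collagen VI is built from the products of COL6A1, COL6A2 and COL6A3, which join in a single unit before secretion. COL6A2 (Entrez 282194) was at 13.7, 19.4 and 17.2 CPM in MC-F7 and at 20.5, 24.5 and 31.1 CPM in MT-F7. The gap between the groups was narrow, from 19.4 CPM in MC-F7 replicate 2 to 20.5 CPM in MT-F7 replicate 1. The mean rose from 16.8 ± 2.89 to 25.4 ± 5.37 CPM (SD, n = 3 each), with a log2 fold change of 0.60 (SE 0.197, 95% interval 0.17 to 1.02, adjusted p = 0.044). This call was the least secure of the 6, since with 1 library left out it passed the threshold only without MT-F7 replicate 1 (adjusted p = 0.040), and the adjusted p was 0.060 to 0.137 without any other library.

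COL6A1 (Entrez 511422), the neighbour of COL6A2 in the same annotation, was at 11.1, 14.4 and 15.0 CPM in MC-F7 and at 8.76, 11.1 and 13.2 CPM in MT-F7. The groups overlapped, and in both of them replicate 1 was the lowest and replicate 3 the highest. Its log2 fold change of -0.29 did not pass the threshold (SE 0.202, 95% interval -0.73 to 0.15, adjusted p = 0.33), and it lay between -0.45 and -0.16 with 1 library left out.

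COL6A3 (Entrez 530657) was the least abundant of the 10 genes, with 38, 96 and 75 counts in MC-F7 and 44, 36 and 94 counts in MT-F7, and 19.8% of the tested genes had a lower mean. This corresponds to 1.68, 3.98 and 3.51 CPM and to 1.75, 1.39 and 3.99 CPM, with overlapping groups. The log2 fold change was -0.37 (SE 0.421, adjusted p = 0.57), and the 95% interval ran from -1.28 to 0.54, which covers a large decrease but not an increase of the size called in COL6A2. With 1 library left out the value lay between -0.97 (without MT-F7 replicate 3) and -0.09 (without MT-F7 replicate 2), and it did not pass the threshold in any of these fits.

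FN1 (Entrez 280794) encodes fibronectin, which links collagens to integrins on the cell surface. Its libraries were at 92.7, 98.4 and 82.8 CPM in MC-F7 and at 186, 196 and 156 CPM in MT-F7. The lowest MT-F7 library was far above the highest MC-F7 library, and replicate 3 was the lowest in each group. The mean rose from 91.3 ± 7.89 to 180 ± 20.9 CPM (SD, n = 3 each), a log2 fold change of 0.98 (SE 0.153, 95% interval 0.64 to 1.31, adjusted p = 6.0e-04), or 1.97-fold. The annotation places the microRNA gene MIR2285L within FN1, and it had 0 counts in each library.

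SPARC (Entrez 282077) was the most abundant of the 10 genes, and 98.9% of the tested genes had a lower mean. Levels were 647, 603 and 410 CPM in MC-F7 and 1059, 986 and 885 CPM in MT-F7. Replicate 3 was the lowest library of each group, and the groups did not overlap. The mean rose from 554 ± 126 to 977 ± 87.7 CPM (SD, n = 3 each), with a log2 fold change of 0.82 (SE 0.190, 95% interval 0.41 to 1.23, adjusted p = 0.0077).

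The summed level of the 10 genes was 1101, 1132 and 868 CPM in MC-F7 and 1853, 1743 and 1677 CPM in MT-F7. SPARC made up 47.3 to 58.8% of their counts in the MC-F7 libraries and 52.8 to 57.2% in the MT-F7 libraries, so the sum largely followed this gene.

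For levels between genes, the deposited values that the authors call TPM were used, a unit that divides counts by gene length. The lengths behind them were not checked. In MC-F7 the mean TPM was 47.8 for SPARC and 8.79 for COL1A1, and the ranges of both over the 3 libraries were apart from each other and from all other members. COL5A1 (2.21), FN1 (2.09) and COL5A2 (1.56) followed, and the range of each overlapped that of the next of them. Then came COL6A1 (0.904), COL6A2 (0.766), COL1A2 (0.674) and COL3A1 (0.559), again with overlapping neighbours, and COL6A3 (0.0675) was apart as the lowest. In MT-F7 the mean TPM of SPARC was 91.9 and that of COL1A1 was 12.6. FN1 (4.49), COL5A2 (4.23) and COL5A1 (4.16) came next, with ranges that overlapped each other. COL3A1 (1.93) stood in ninth place in MC-F7 and in sixth place in MT-F7, above COL6A2 (1.26), which its range overlapped, and above COL6A1 (0.806) and COL1A2 (0.754).

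The proportions of chains that assemble together were compared as ratios of TPM, from which the library size drops out. With 3 libraries against 3, an exact permutation test cannot give a p below 0.1, and 5 ratios were compared. The ratio of COL6A2 to COL6A1 was 0.836, 0.914 and 0.781 in the MC-F7 libraries and 1.59, 1.50 and 1.60 in the MT-F7 libraries. On this scale COL6A1 was the higher of these neighbouring genes in each MC-F7 library and COL6A2 in each MT-F7 library. That order rests on the unchecked lengths, since in counts COL6A2 was the higher in each library of both groups. The difference of the mean log2 ratio was 0.89 (two-sided exact permutation p = 0.1, adjusted p = 0.125).

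COL5A1 over COL5A2 gave 1.55, 1.35 and 1.40 in the MC-F7 libraries and 0.949, 0.955 and 1.03 in the MT-F7 libraries. The ratio was lower in each MT-F7 library, with a mean of 1.43 ± 0.102 against 0.979 ± 0.0460 (SD, n = 3 each, exact permutation p = 0.1, adjusted p = 0.125). Both genes rose, COL5A2 by the larger fold.

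For the type I chains, COL1A1 over COL1A2 was 15.2, 11.3 and 13.6 in the MC-F7 libraries and 16.4, 15.6 and 18.6 in the MT-F7 libraries. The groups were apart, with a difference of the mean log2 ratio of 0.34 (exact permutation p = 0.1, adjusted p = 0.125). COL3A1 over COL1A1, which sets type III against type I collagen, was 0.0522, 0.0635 and 0.0786 in the MC-F7 libraries and 0.157, 0.181 and 0.119 in the MT-F7 libraries. That ratio was higher in each MT-F7 library by a mean log2 difference of 1.23 (exact permutation p = 0.1, adjusted p = 0.125). COL6A3 over COL6A1 overlapped between the groups (exact permutation p = 0.8), with 0.0497, 0.0905 and 0.0769 in the MC-F7 libraries and 0.0656, 0.0410 and 0.0992 in the MT-F7 libraries.

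**Figure D3:**
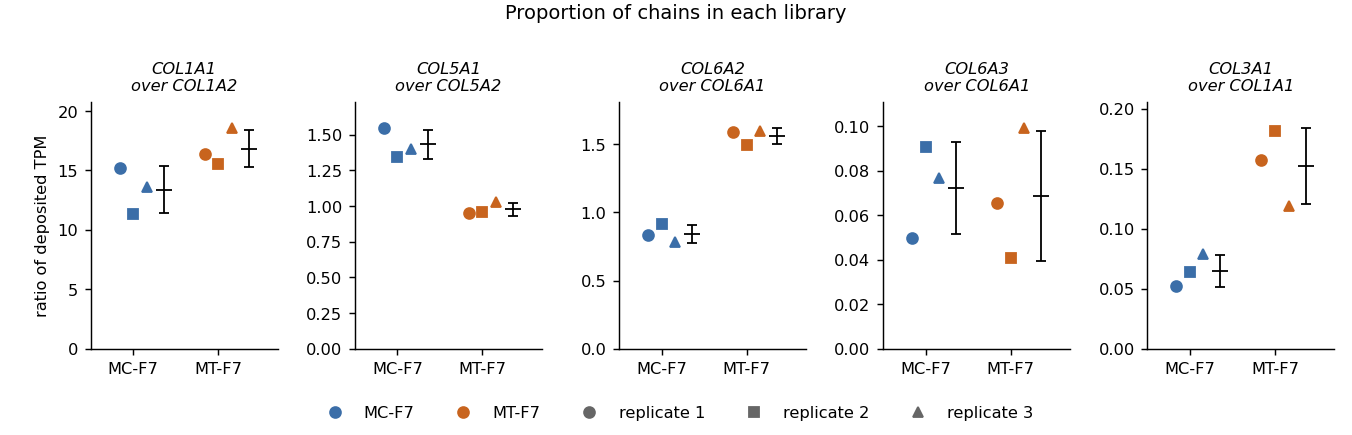
Ratio of deposited TPM between 5 pairs of collagen genes in each of the 6 libraries, on linear axes from 0, with the mean and the SD of each group of 3 (n = 3) beside the points. The groups are apart for 4 ratios, among them COL6A2 over COL6A1 at a mean of 0.844 for MC-F7 and 1.56 for MT-F7, and overlap for COL6A3 over COL6A1.

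Within the groups, several of the 10 genes shared the order of their libraries. COL1A1, COL1A2, FN1 and SPARC, 4 of the 10, were lowest in replicate 3 of both groups, and COL5A1, COL5A2 and COL6A1 were highest there. The share of all tested genes with such an order was not counted, so it is not shown to be particular to these genes. In the plot of deviations within groups, the log2 CPM of SPARC in replicate 3 was 0.41 under the group mean for MC-F7 and 0.14 under it for MT-F7, and that of COL5A1 was 0.25 and 0.34 above it. COL6A3, the gene with the fewest counts, had the widest spread, from -0.77 in MC-F7 replicate 1 to 0.90 in MT-F7 replicate 3. The mitochondrial share was also highest in both replicate 3 libraries, and its part in the order of the libraries was not tested. When the mitochondrial genes were left out before scaling, the log2 fold changes between the groups were the same to the digits given here for SPARC (0.82), COL1A1 (0.39) and COL6A2 (0.60), and the same number of the 10 genes, 6, was called. The scaling already corrects for library size, so this fit cannot show whether what underlies the mitochondrial share affected the 10 genes. Without both replicate 3 libraries, 5 of the 10 genes were called, all with higher levels in MT-F7, where 32.4% of all tested genes were called and 16.8% with higher levels in MT-F7. COL6A2 was the gene no longer called (log2 fold change 0.46, adjusted p = 0.060), and COL1A1 had an adjusted p of 0.051.

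**Figure D4:**
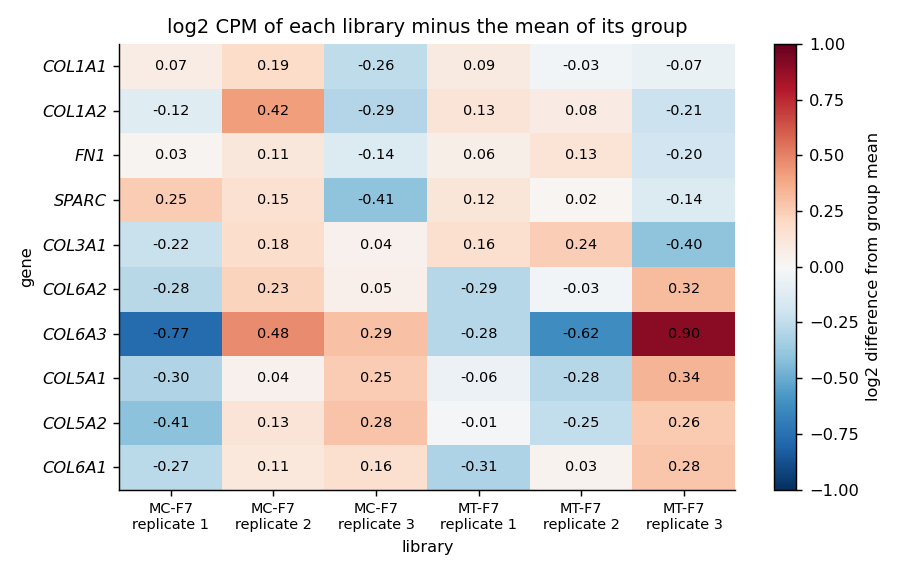
Deviation of the log2 CPM of each library from the mean of its group, for the 10 genes (rows) in the 6 libraries (columns), with red for above and blue for below the mean and the value in each cell. The replicate 3 columns are the lowest of their group for COL1A1, COL1A2, FN1 and SPARC and the highest for COL5A1, COL5A2 and COL6A1.

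The genes with profiles nearest to FN1, COL1A1 and SPARC over the 6 libraries were sought among 7802 other genes that averaged 10 CPM or more, by the root mean square difference of centred log2 CPM. For FN1 these were TP53INP1 (0.0407), WWC3 (0.0756) and ZBTB12 (0.0783). For SPARC they were RNF130 (0.0529), CMKLR2 (0.0702) and SFRP1 (0.0754), and for COL1A1 they were VPS41 (0.0595), COMMD4 (0.0610) and CUL4B (0.0618). By the same measure FN1 and SPARC were 0.169 apart and COL1A1 and COL1A2 0.222 apart. The measure covers 6 libraries in 2 groups, so the group difference is part of it.

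Other genes of the matrix were taken from lists chosen by function, also with earlier results of these data known. Each count can be read against the 23.2% called among all tested genes, as a description only. Of the other fibrillar collagens, 5 were tested, and 2 rose and 0 fell, with a median log2 fold change of 0.70. They were COL2A1, the cartilage collagen that is also made by many embryonic epithelia (979 ± 87.3 to 1759 ± 346.6 CPM, log2 fold change 0.84, adjusted p = 0.0052), and COL11A1, whose product joins type II and type V fibrils (26.3 to 44.0 CPM, log2 fold change 0.75, adjusted p = 0.0047). Among 13 tested non-fibrillar collagens 6 rose and 2 fell, with a median of 0.61. The largest increases were in the basement membrane genes COL4A6 (1.62) and COL4A5 (1.53), and the decreases were in COL15A1 (-0.97) and COL18A1 (-0.88), which encode the collagens that release restin and endostatin.

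Genes for the folding, trimming and crosslinking of collagen moved in both directions. Of 25 tested, 4 rose and 5 fell, with a median log2 fold change of 0.11. P3H2, a prolyl 3-hydroxylase (log2 fold change 1.84), and ADAMTS3, a procollagen N-proteinase (1.39, mean CPM 0.622 in MC-F7 and 1.64 in MT-F7), had the largest increases. P4HA2 (-1.29) and P4HA1 (-1.23), catalytic subunits of prolyl 4-hydroxylase, had the largest decreases. The call of ADAMTS3 was lost without any 1 of MC-F7 replicates 1 and 2 and MT-F7 replicates 1 and 3 (adjusted p = 0.051 to 0.129), and that of COL18A1 without MT-F7 replicate 1 or 2 (0.065 and 0.067).

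Partners of fibronectin and of elastic fibres, whose fibrillins assemble on the fibronectin network, had 11 higher and 2 lower genes of 19 tested, with a median log2 fold change of 0.69. MFAP4 (log2 fold change 2.60, mean CPM 0.353 in MC-F7 and 2.16 in MT-F7) and FBLN1 (1.60) had the largest increases. The decreases were in LTBP3 (-0.88), which binds latent TGF-beta and was not called without MT-F7 replicate 2 (adjusted p = 0.054), and in FNDC1 (-1.71), which was under the mean of 1 CPM set for named genes and is given because only 2 genes fell. Of 13 tested receptors for collagen and fibronectin, 2 rose and 0 fell, with a median of 0.44. These were the integrin beta chains ITGB5 (2.25) and ITGB3 (0.96), whose partner ITGAV had a log2 fold change of 0.46 that did not pass (adjusted p = 0.33).

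Small leucine-rich proteoglycans, which coat collagen fibrils, had 3 of 6 tested genes higher and 0 lower, with a median of 0.58. PRELP (1.29) and BGN (0.66) were 2 of them, and FMOD was the other, under 1 CPM. The list of matricellular proteins, secreted regulators to which SPARC itself belongs, had 8 higher and 1 lower of 16 tested, with a median of 0.44. SPP1, the osteopontin gene (2.17), and THBS3 (1.66) had the largest increases among those that averaged 1 CPM or more, and THBS4 (-1.69) was the decrease.

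**Figure D5:**
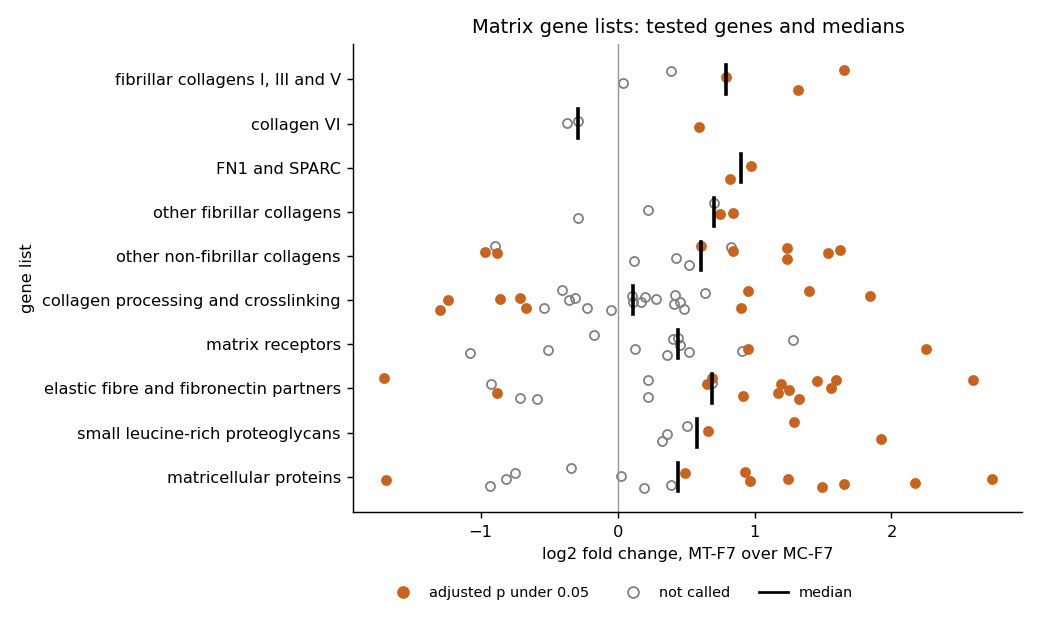
Log2 fold change (MT-F7 over MC-F7) of each tested gene of the matrix lists, 1 point per gene and 1 row per list, with filled points for an adjusted p under 0.05 and a bar at the median. The medians lie above 0 for all lists except collagen VI (-0.29), and that of the processing and crosslinking list is 0.11.

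Markers of other cells were examined because fibroblasts make the same proteins. Their counts can likewise be read against the 23.2% called among all tested genes. The feeder cells were mouse cells and the reads were aligned to the bovine genome, and the cells were left to settle on gelatin before the floating ones were taken. The paper reports a higher overall alignment rate for MT-F7 than for MC-F7 cells, and proposes that fixed feeders left less feeder cell contamination. Any mouse share of the counts therefore need not be equal in both groups. How many counts of the 10 genes came from mouse RNA was not tested. Of 15 fibroblast markers, 12 were tested, 3 were higher (VIM, POSTN and PDGFRB) and 1 was lower (TWIST2) in MT-F7. Their sum was 1132 to 1566 CPM in MC-F7 and 1733 to 3073 CPM in MT-F7, nearly all of it from VIM, which many cell types express. Without VIM the sum was 28.1 to 34.4 CPM in MC-F7 and 40.0 to 43.1 CPM in MT-F7. PDGFRB, a growth factor receptor of mesenchymal cells, rose from a mean of 6.50 to 12.3 CPM (log2 fold change 0.93, adjusted p = 0.017), and POSTN, a matricellular protein of fibroblasts, rose from 3.30 to 7.81 CPM (1.24, adjusted p = 0.013). These means were in the range of those of COL6A1 and COL6A3. TWIST2 fell from 1.81 to 0.406 CPM (-2.15, adjusted p = 0.011). Of markers that did not pass, PRRX1 was at a mean of 0.670 and 0.215 CPM in MC-F7 and MT-F7 (edgeR adjusted p = 0.054). DDR2 was at 0.578 and 1.42 CPM (adjusted p = 0.052), DCN at 1.87 and 2.40 CPM and LUM at 6.43 and 8.09 CPM. THY1 was at 4.16 and 3.34 CPM, PDGFRA at 1.01 and 1.18 CPM, TWIST1 at 2.26 and 2.93 CPM and S100A4 at 1.11 and 1.50 CPM. None of the 15 was at 0 in all 6 libraries, MEOX1 had at most 2 counts in any, and FAP had 0 counts in each MT-F7 library.

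Of the 5 smooth muscle and myofibroblast markers 3 rose (ACTA2, TAGLN and DES) and CNN1 fell, and their sum was 338 to 487 CPM in MC-F7 and 656 to 857 CPM in MT-F7. Pluripotency markers moved the other way, with 8 of 9 lower and a sum of 1390 to 2081 CPM in MC-F7 and 744 to 861 CPM in MT-F7. Of the defining markers of the labelled cell type, POU5F1 (mean 1196 CPM in MC-F7 and 522 CPM in MT-F7) and NANOG (43.5 and 10.7 CPM) were present in each library of both groups. SALL4 was the 1 of the 9 that did not pass. SOX2 and LIN28B were also on this list but were not found by symbol in the count table. The neural list had 2 higher of 4 tested (PAX6 and MAP2). Its sum was 483 to 558 CPM in MC-F7 and 620 to 687 CPM in MT-F7. Without NES, its most abundant gene, which did not pass, the groups overlapped (194 to 229 and 223 to 258 CPM). The endothelial list had 2 higher (TEK and KDR) and 1 lower (VWF) of 4 tested. Its sum was 10.2 to 13.1 CPM in MC-F7 and 22.2 to 24.3 CPM in MT-F7. Without TEK, its most abundant gene, the groups overlapped (7.61 to 11.0 and 10.3 to 11.2 CPM). In the endoderm list GATA4 and AFP had 0 counts in each library, and TTR rose and FOXA2 fell among 3 tested genes. The endoderm sum was 5.75 to 7.84 CPM in MC-F7 and 3.43 to 4.76 CPM in MT-F7. Without FOXA2, its most abundant gene, it was 1.11 to 2.78 CPM in MC-F7 and 3.03 to 3.99 CPM in MT-F7, the other direction. The part of any of these cell types in the levels of the 10 genes was not tested.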

How the data were processed

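Total RNA of floating F7 cells was sequenced in 6 libraries (3 MC-F7, 3 MT-F7), grouped by the labels. The authors filtered paired reads and aligned them to an Ensembl Bos taurus genome with HISAT2 2.0.5, and the deposited raw counts per Entrez gene were made with featureCounts 1.5.0-p3, as the submitters' processing notes and the paper's methods give. The build and the use of strand are not given in the sources used here. The deposited TPM values of the authors were proportional to the counts, with 1 ratio per gene in all libraries, and their columns summed to 154763 to 164394, so library size remains in them. Of the TPM table's 21653 lines, 21357 genes were used, the first line of each of the 159 repeated identifiers among them. The count table held 89 genes without a symbol. Intervals cover the spread between these libraries only.

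Low genes were removed with filterByExpr (10 as its minimum count and 15 as its minimum total), and the rest were compared by the quasi-likelihood test of edgeR 4.0.16 (R 4.3.3), with TMM factors of 0.971 to 1.04, a two-sided test and no block. CPM used TMM-scaled library sizes. The alternatives were other scalings and filters, other tests (DESeq2 1.42.0, limma 3.58.1 on log2(TPM + 1) and log2(TPM + 0.1), a likelihood ratio test, a replicate block), each library left out, and, chosen after seeing the data, both replicate 3 libraries or the mitochondrial genes left out. On simulated counts for this comparison (19163 genes, 200 changed), the test recovered 78 of 92 genes changed by a log2 of 1 and 108 of 108 changed by a log2 of 2, and 3.63% of its calls were false. Every simulated gene had the same dispersion, and the changed genes were drawn only from those with more counts. Far fewer genes were changed than the 3016 called in the data. These rates therefore need not hold for the real genes, among them those with low counts. The members and lists were chosen with earlier results of these data known. All 10 members were named, and of each list the called genes with the largest change in each direction (up to 2) and a mean of at least 1 CPM. RefSeq (ARS-UCD2.0) was used for names and neighbouring genes only.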

Additional observations from a re-analysis of the deposited data

How the results depend on the processing

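COL3A1, COL5A1, COL5A2 and FN1 had a positive log2 fold change at an adjusted p under 0.05 in each of the settings tried. Whether a value was over 1 did depend on the setting, with 0.90 for COL3A1 under limma on log2(TPM + 1) and 0.83 to 1.07 for FN1 over all settings. The mean TPM of COL3A1 in MC-F7, 0.559, was below the added 1, and limma on log2(TPM + 0.1) gave 1.60. SPARC missed the threshold only with limma on log2(TPM + 1) (0.96, adjusted p = 0.064), and COL6A2 missed it in 9 of 18 settings. Of the 10 genes, 5 to 6 were called with 1 library left out (log2 fold change of COL1A2 -0.11 to 0.28, of COL6A2 0.42 to 0.72), where 14.5% to 23.4% of all genes were called, 4 to 5 with limma on TPM, where 12.5% to 17.7% were, and 2 when a log2 fold change over 1 was also asked. Over all genes 1489 were called under that rule, 1310 with limma on log2(TPM + 1) where only genes averaging 1 TPM or more were kept, and 1914 (without MC-F7 replicate 2) to 3093 with 1 library left out, against 3016. Limma on TPM also moved the split of calls, from 1553 higher and 1463 lower to 1395 and 723 with log2(TPM + 1), to 1691 and 883 with log2(TPM + 0.1), and to 879 and 431 with the minimum on the mean. These fits did not scale for library size, which remains in the TPM values. The cause of the moved split was not tested. With the replicate block, 4674 genes (36.0%) and 7 of the 10 were called, COL1A1 among them (0.40, adjusted p = 0.020). The deviations of libraries with the same number had correlations of 0.134, 0.0445 and 0.417 for replicates 1, 2 and 3. That of replicate 3 was the highest of all pairs, while replicates 1 and 2 of MC-F7 were nearest to replicates 2 and 1 of MT-F7. These correlations cannot decide whether libraries of the same number were paired or shared a batch. The 3 against 3 design cannot pass a threshold in exact permutation tests, and depth limits COL6A3, with 36 to 96 counts.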

Other observations

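SPARC has relatives that share its calcium-binding fold, and their values were singled out after they were seen. FSTL1 was at a mean of 221 CPM in MC-F7 and 434 CPM in MT-F7 (log2 fold change 0.97, edgeR adjusted p = 0.0018), and SMOC1 at 78.5 and 149.7 CPM (0.93, adjusted p = 0.013). SPARCL1 was barely detected in MC-F7, with a mean of 0.171 CPM, and was at 1.19 CPM in MT-F7 (2.73, adjusted p = 0.0042). SPOCK2 was at 2.27 and 2.58 CPM (0.19, adjusted p = 0.70). SMOC2, at 0.329 and 0.141 CPM, and SPOCK1, at 0.0312 and 0.241 CPM, were too low to be tested.

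Of the lysyl oxidases, which crosslink collagen and elastin, LOXL1 (146 to 273 CPM, log2 fold change 0.90, adjusted p = 0.0011) and LOXL2 (39.1 to 75.6 CPM, 0.95, adjusted p = 4.4e-04) rose in the same comparison. LOX itself was at 3.34 and 3.61 CPM (0.11, adjusted p = 0.82). ELN, the elastin gene, rose from 5.80 to 14.5 CPM (1.32, adjusted p = 2.1e-04), and the fibrillin genes FBN1 (7.21 to 16.2 CPM, 1.17, adjusted p = 8.3e-04) and FBN2 (21.1 to 48.4 CPM, 1.19, adjusted p = 2.1e-04) rose as well. These genes were also chosen after their values were seen.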
